A study of Caenorhabditis elegans with 2 samples.

Results

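The genes described here encode the factors that start and extend protein synthesis in Caenorhabditis elegans. They are the 39 nuclear protein-coding genes of 19973 whose Ensembl name begins with eif-, ife-, ifg-, eef- or iff-. By name, 31 are initiation factors, 6 are elongation factors and 2 encode eIF5A. Members were taken by name alone, under a rule set with earlier results of these data known. Factors with other names were left out, such as inf-1, the worm eIF4A. Chromatin immunoprecipitation with sequencing was carried out on whole L4 hermaphrodites of strain OP529, 48 hours after synchronization as starved L1 larvae. These worms carried the integrated transgene wgIs529 in an unc-119(tm4063) background, expressed F10B5.3 with GFP and FLAG at its C-terminus, and were precipitated with an antibody against GFP. There were 2 biological replicates of this 1 group and no other condition, so no test over samples was possible and the values below are descriptions. Whole animals mix all tissues, and the cells in which a site was occupied cannot be told from these data.

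Translation begins when eIF2 brings the initiator tRNA to the small ribosomal subunit, with eIF3 as a scaffold, and when eIF4E and eIF4G bring the capped messenger RNA to it. The exchange factor eIF2B recharges eIF2 with GTP and is a target of stress signalling. During elongation eEF1A delivers each aminoacyl-tRNA to the ribosome, the eEF1B subunits recharge eEF1A, and eEF2 moves the ribosome along the message. The hypusine-bearing factor eIF5A was first named for initiation and is known to help elongation and termination. Because its name and its best known role differ, it was kept as a class of its own.

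For each gene the highest signal among calls with a summit within 1000 bp of an annotated transcription start site (TSS) was taken. The signal is the value that the authors' peak caller gave each call, on a scale that was not stated, and it is read only within 1 list. The pooled list held 30000 calls, with weak calls down to a signal of 18.4. The lists of the replicates held 22211 and 27642 calls. Read depth is unknown. The authors' thresholded set from irreproducible discovery rate (IDR) analysis held 862 peaks, the lowest with a signal of 86.5, and these were the pooled calls of highest signal. A summit in this set is called an IDR summit, and it is therefore a cut on the pooled signal and not a separate measurement. Coordinates are in ce11 (WBcel235).

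Sequence around the highest summit is shown for 7 of the IDR members described below, since the results turn on these sites. The first set holds sites at which a non-coding RNA gene lay within 200 bp of the summit, and capitals mark the bases inside such a gene. These are III:6972002-6972102 for eef-1A.1, III:7973387-7973465 for eef-1B.1 and II:6968308-6968408 for eif-2Bgamma, each read on the minus strand, which is the strand of the gene, and cut where an untranslated region began.
eef-1A.1: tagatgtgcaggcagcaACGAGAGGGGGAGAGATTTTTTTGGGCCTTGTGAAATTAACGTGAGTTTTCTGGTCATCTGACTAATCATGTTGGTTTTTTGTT
eef-1B.1: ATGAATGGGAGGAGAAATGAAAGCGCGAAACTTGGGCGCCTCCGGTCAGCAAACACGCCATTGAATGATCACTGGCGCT
eif-2Bgamma: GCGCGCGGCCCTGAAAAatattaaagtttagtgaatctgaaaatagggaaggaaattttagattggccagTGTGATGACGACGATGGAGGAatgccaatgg

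The second set holds IDR members without such an RNA gene, and here capitals mark TATAAA or its reverse complement. The IDR members eif-3.C and eef-2 also had no such RNA gene, and their sequence is not shown. These are II:14795041-14795141 on the plus strand for eif-3.B, X:382879-382979 on the minus strand for ife-2, II:8561414-8561514 on the minus strand for iff-2 and V:10965673-10965718 on the plus strand for eef-1G. For eef-1G only the bases before its 5′ untranslated region are given.
eif-3.B: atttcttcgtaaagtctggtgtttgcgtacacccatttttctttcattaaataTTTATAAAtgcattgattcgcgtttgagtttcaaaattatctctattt
ife-2: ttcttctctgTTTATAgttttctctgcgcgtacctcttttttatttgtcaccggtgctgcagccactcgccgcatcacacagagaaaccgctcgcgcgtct
iff-2: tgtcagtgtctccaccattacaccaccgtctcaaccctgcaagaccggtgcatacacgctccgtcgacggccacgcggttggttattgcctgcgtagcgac
eef-1G: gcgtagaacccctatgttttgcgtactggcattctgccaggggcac

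Calls were found near most translation factor genes, and strong calls near a minority. Of the 39 members, 35 (89.7%) had a pooled call, against 47.5% of all nuclear protein-coding genes. An IDR summit was present at 9 members (23.1%), against 3.31% of all genes. Among genes with any pooled call the shares were 9 of 35 members (25.7%), against 6.97% of 9483 genes. The 35 members with a call passed only because a call was present, and 4 members had none. When every gene was ranked by its highest pooled signal, with genes lacking a call at the lowest rank, the members had a median percentile of 79.2, against 26.3 over all genes, a value shared by every gene without a call. Calls were present at 32 members in each replicate, against 41.1% of all genes in replicate 1 and 46.7% in replicate 2. In the replicate lists the members' median was 76.8 in replicate 1 and 70.7 in replicate 2, against 29.4 and 26.7 over all genes. At or above the 90th percentile of the pooled list were 13 members (33.3%), against 10% of all genes.

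Elongation factor genes ranked higher than most initiation factor genes. An IDR summit was present at 4 of 31 initiation factors (12.9%) and at 4 of 6 elongation factors (66.7%), against 3.31% of all genes. When each call was given only to the gene of its nearest TSS, eef-1A.1 dropped out. The counts were then 4 initiation and 3 elongation factors, against 2.44% of all genes. The median percentile was 74.6 for initiation factors and 98.2 for elongation factors in the pooled list. In replicate 1 it was 74.9 for initiation and 97.8 for elongation factors, and in replicate 2 it was 67.4 for initiation and 98.1 for elongation factors. Among genes with a pooled call the median signal was 32.4 over 27 initiation factors and 126.8 over 6 elongation factors, against 32.9 over all genes with a call. The classes overlapped, since initiation factors ranged from no call to 689.9 and elongation factors from 35.5 to 273.7. With 6 elongation genes, and with class fixed by gene name, the difference was not tested.

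**Figure D1:**
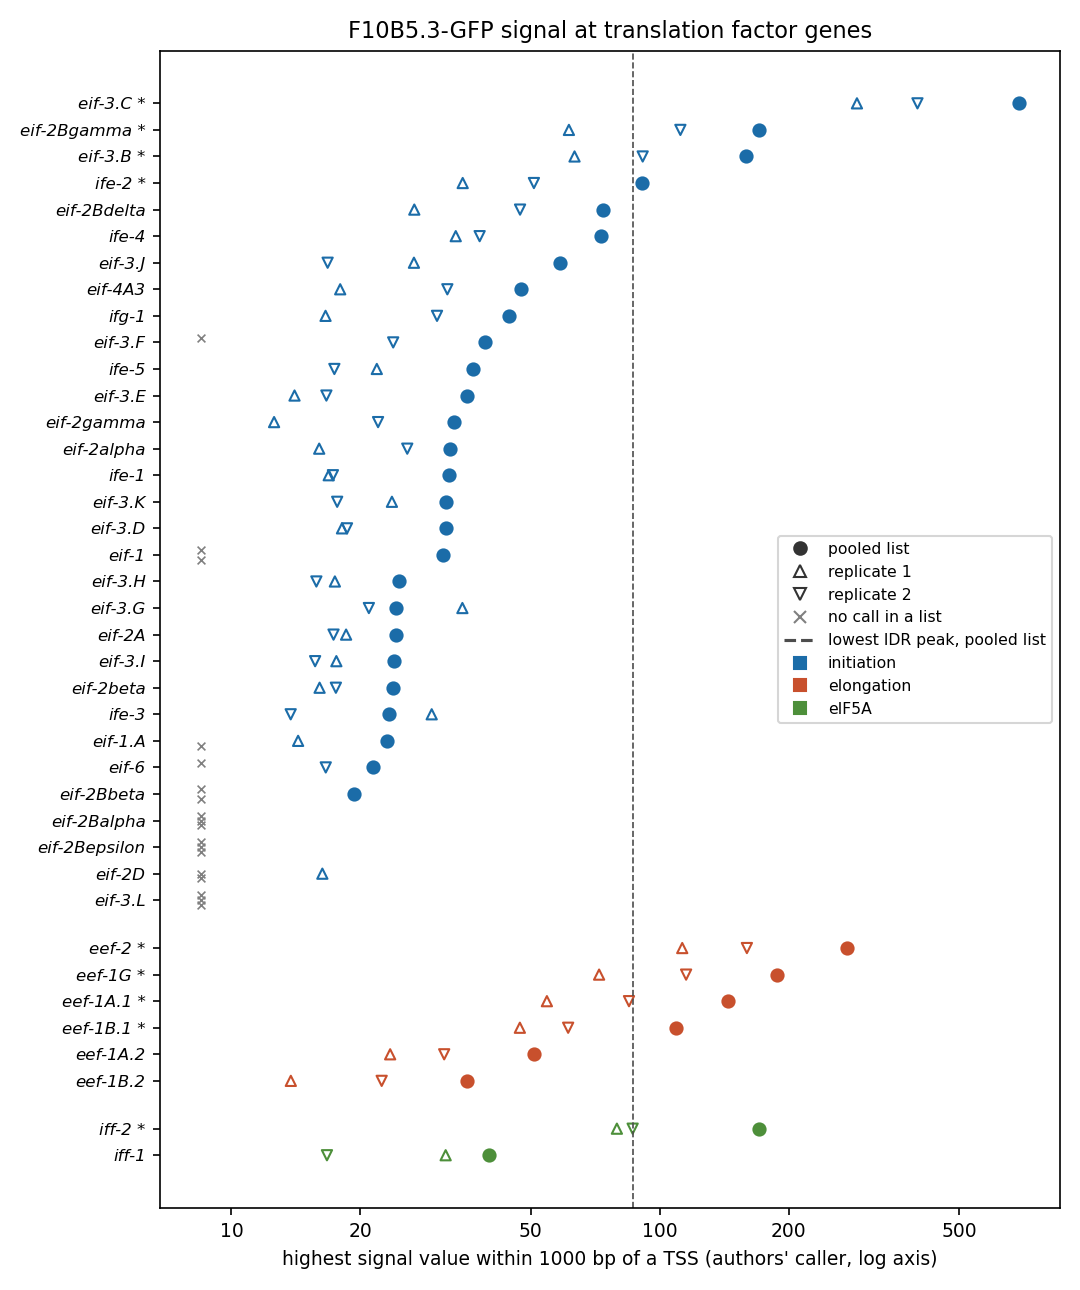
Highest signal within 1000 bp of a TSS (log axis) for each of the 39 genes, in the pooled list (filled circles) and in both replicates (open triangles), with crosses at the left for lists without a call. Asterisks mark the 9 genes with an IDR summit, which lie right of the dashed line at 86.5, and 4 of the 6 elongation factors are among them.

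The eEF1 and eEF2 genes were led by eef-2, the translocase. It lies at I:9163531-9166952 (WBGene00001167) and had a signal of 273.7 in the pooled list, 112.9 in replicate 1 and 159.9 in replicate 2. Its summit at 9163539 lay 8 bp downstream of the TSS, inside its own 5′ untranslated region. Both replicates placed the gene above the 99th percentile, at 99.6 in each.

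For eef-1G, the gamma subunit of eEF1B at V:10965719-10967922 (WBGene00008920), the signals were 188 in the pooled list, 72.2 in replicate 1 and 115.3 in replicate 2. The summit lay 4 bp downstream of a TSS, also in its 5′ untranslated region. It was the second highest elongation factor in each of the 3 lists.

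Of the eEF1A genes, eef-1A.1 (WBGene00001168, III:6970026-6971712) had a pooled signal of 144.3, with 54.5 in replicate 1 and 84.8 in replicate 2. Its paralogue eef-1A.2 (WBGene00001169, X:7823654-7825769) had 50.9, 23.5 and 31.4 in the same lists. Only eef-1A.1 had an IDR summit, 340 bp upstream of its TSS. The eef-1A.2 summit lay 290 bp upstream, and in replicate 2 its highest call was another one, 1132 bp away, with 26.5 at the pooled site. No stretch of 31 bases within 50 bp of either summit occurred elsewhere in the genome.

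The exchange factor genes showed the same kind of contrast. The gene eef-1B.1 (WBGene00018846, III:7972382-7973386) had a signal of 109.3 in the pooled list, 47.2 in replicate 1 and 61.1 in replicate 2. Its partner gene eef-1B.2 (WBGene00012768, IV:15037331-15039551) had 35.5, 13.8 and 22.4. The summit of eef-1B.1 was 29 bp upstream of the TSS and in the IDR set, and that of eef-1B.2 was 179 bp upstream and outside it. The lowest elongation factor in all 3 lists was eef-1B.2.

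Among initiation factors, the eIF3 scaffold genes held the highest and many of the low values. The highest of all members was eif-3.C, a core subunit gene at I:9976426-9979662 (WBGene00001226), with a signal of 689.9 in the pooled list, 288.9 in replicate 1 and 399.96 in replicate 2. By gene it ranked 4 of 9483 with a pooled call, and its peak ranked 14 among nuclear calls. The summit lay at 9979905 in I:9979716-9980090, between genes and 243 bp upstream of the TSS.

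The core subunit gene eif-3.B (WBGene00001225, II:14795404-14798235) had 159.4 in the pooled list, 63.3 in replicate 1 and 91.3 in replicate 2, with its summit 313 bp upstream. These were the 2 of 11 eIF3 genes with an IDR summit (18.2%), against 3.31% of all genes. The other members of the complex with a call had signals from 23.98 at eif-3.I to 58.6 at eif-3.J, and eif-3.L had no call in any list. Between these lay eif-3.D with 31.7, eif-3.E with 35.6 and eif-3.K with 31.8, among others. The pooled summits of eif-3.D and eif-3.H were nearer to a TSS of another gene, R08D7.4 at 72 bp and C41D11.3 at 2 bp. Subunits of 1 complex, whose proteins act together, thus ranged from no call to 689.9.

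The call at eif-3.J, a loosely bound subunit, reached the 93.1 percentile in the pooled list, with a signal of 58.6, 26.7 in replicate 1 and 16.8 in replicate 2. Its summit lay 886 bp upstream of the TSS, in the 3′ untranslated region of slc-25A46, the neighbouring gene on the same strand. The replicates differed here, at percentiles of 90.5 and 65.6. For eif-3.F no call was listed in replicate 1, while replicate 2 had a signal of 23.9 and the pooled list 39.1.

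The exchange factor eIF2B has 5 subunit genes. The gamma subunit gene eif-2Bgamma (WBGene00004090, II:6965800-6967648) had 170.5 in the pooled list, 61.4 in replicate 1 and 111.8 in replicate 2. This summit, at II:6968358, lay 710 bp upstream of its TSS, in an intron of C15F1.5, so it is the IDR member whose summit was farthest from the gene start. The delta subunit gene eif-2Bdelta (WBGene00008670, V:9513824-9517649) had 73.9, 26.7 and 47.2 in the same lists, with its summit 3 bp upstream of the TSS. It was the highest member outside the IDR set. The catalytic epsilon and the alpha subunit genes, eif-2Bepsilon and eif-2Balpha, had no call in any list, and eif-2Bbeta had a pooled call of 19.3 with none in either replicate.

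None of the 3 genes for the subunits of eIF2 itself had an IDR summit, against 3.31% of all genes, so none is near the background. Their pooled signals were 32.4 for eif-2alpha, the subunit phosphorylated under stress, 23.8 for eif-2beta and 33.1 for eif-2gamma. All 3 had calls in both replicates, between percentiles of 59.3 and 84.2, but not at the same sites. For eif-2alpha no call of replicate 2 lay within 100 bp of the pooled summit, and for eif-2beta and eif-2gamma none of replicate 1 did. For eif-2alpha and eif-2gamma the pooled summits lay inside the coding sequence, 852 and 515 bp downstream of the TSS.

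Of the 5 cap-binding eIF4E genes, the 2 on the X chromosome had the highest signals. The gene ife-2, whose loss is known to extend worm lifespan (WBGene00002060, X:381385-382709), had 91 in the pooled list, 34.7 in replicate 1 and 50.9 in replicate 2. It was the member just inside the IDR set. In neither replicate was it among the 862 highest calls, which began at 41.8 in replicate 1 and 51.5 in replicate 2. The gene ife-4 (WBGene00002062, X:1104212-1106251) had 72.8, 33.4 and 37.99 and lay just outside the set.

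The germline cap-binding genes ife-1, ife-3 and ife-5 had pooled signals of 32.2, 23.3 and 36.7. The ife-1 summit lay 950 bp downstream of a TSS of ife-1, and a TSS of acaa-2 was nearer, at 163 bp. For ife-3 the replicates differed, with a signal of 29.4 in replicate 1 and 13.8 in replicate 2. These were separate calls, 1699 bp from the pooled summit in replicate 1 and 90 bp from it in replicate 2. The third X-linked member was eef-1A.2.

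The remaining initiation genes all had signals under 50. The eIF4G scaffold gene ifg-1 had 44.6 in the pooled list, and eif-4A3, a helicase of the exon junction complex, had 47.3. Start codon selection depends on eIF1 and eIF1A. The gene eif-1 had 31.3 in the pooled list and no call in either replicate, and eif-1.A had 23.1 there, 14.3 in replicate 1 and none in replicate 2. The ribosome assembly factor gene eif-6 had 21.4 in the pooled list, no call in replicate 1 and 16.6 in replicate 2. The pooled summits of eif-1 and eif-6 were also nearer to a TSS of another gene, pigb-1 at 57 bp and gale-1 at 498 bp. So was that of ifg-1, which lay upstream of its own TSS and inside the coding sequence of M110.3, the gene with the nearer TSS. At eif-2A the pooled signal was 24.2. For eif-2D the only call was in replicate 1, with a signal of 16.3.

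The eIF5A genes differed from each other as the eEF1A genes did. The somatic gene iff-2 (WBGene00002065, II:8559375-8561367) had 170.3 in the pooled list, 79.5 in replicate 1 and 86.5 in replicate 2, and its summit lay 97 bp upstream of a TSS. The germline gene iff-1 (WBGene00002064, III:9745862-9747193) had 39.9, 31.6 and 16.7. Its percentile was 93.7 in replicate 1 and 65.5 in replicate 2, and those of iff-2 were 99.2 and 98.7. The highest call of iff-1 in replicate 2 was another one, 154 bp from the pooled summit. As iff-2 has an IDR summit, its high place in both replicates follows in large part from that choice.

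**Figure D2:**
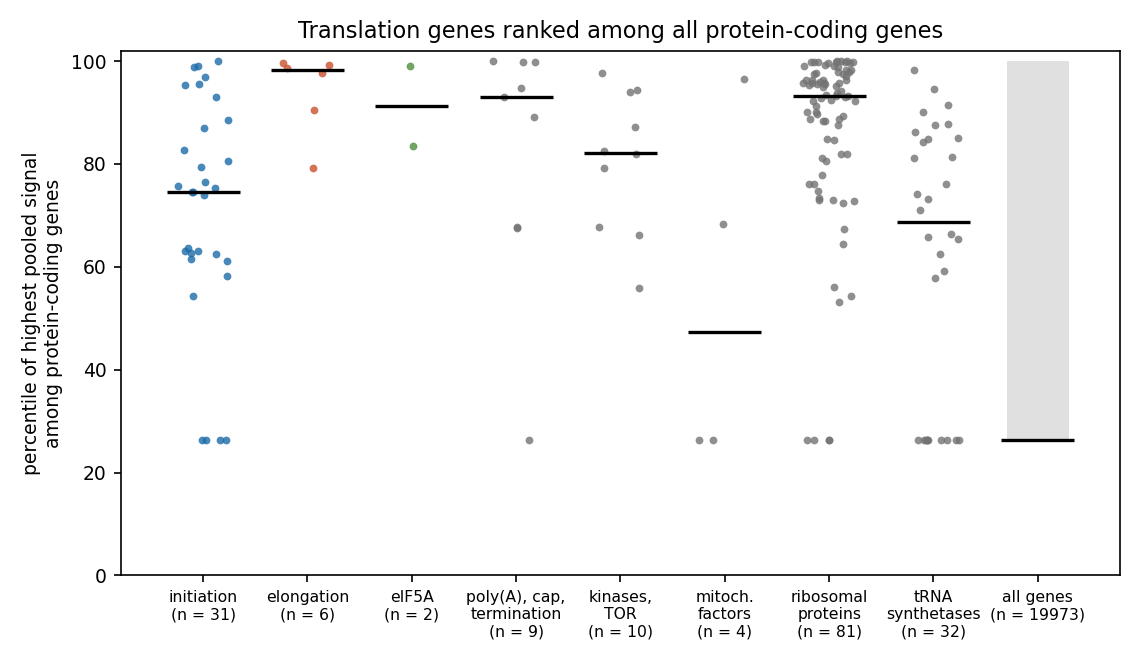
Percentile of the highest pooled signal for each gene of 8 lists (points) with the list's median (line), and at the right the range over all 19973 genes (bar) with its median. Elongation factors sit at 79.2 and above, whereas initiation factors spread from 26.3, the value of genes without a call, to 99.98.

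The replicate lists were compared site by site, although IDR summits were chosen from these same lists, so that high values in both replicates follow in large part from that choice. All 9 IDR members had their highest call within 100 bp of the pooled summit in replicate 1 and again in replicate 2. Among the 26 members with a weaker pooled call, 14 did so in replicate 1 and 14 in replicate 2. No share over all genes stands beside these counts, so they describe the members only. A call among the 862 highest of both replicates was present at 8 of 39 members, against 2.24% of all genes. It was also 8 members in each replicate alone, against 3.18% of all genes in replicate 1 and 3.35% in replicate 2. These were the IDR members other than ife-2. Across the 30 members with calls in both replicates, Pearson's r of the log10 signals was 0.895 and Spearman's rho 0.66, against 0.727 and 0.522 over 5990 genes. Across the 21 such members without an IDR summit, r was 0.136 and rho 0.017, but leaving out the highest pooled values narrows the range and by itself lowers both. These are descriptions, because the genes share libraries. The signal of replicate 2 was 1.09 to 1.82 times that of replicate 1 at the 9 IDR members, and both replicates are on scales of their own.

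**Figure D3:**
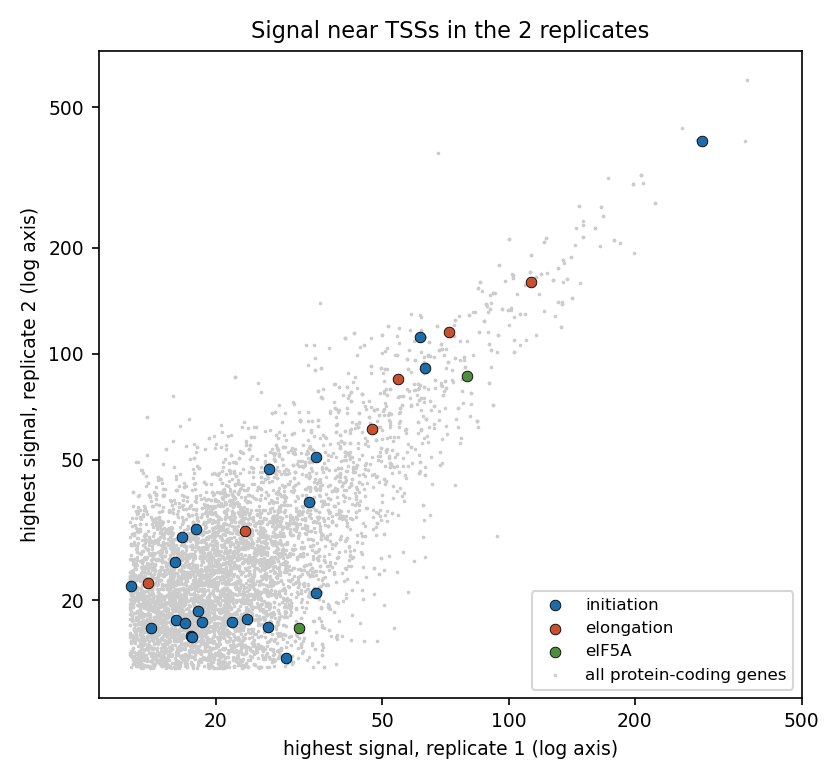
Highest signal near a TSS in replicate 1 (x, log axis) and replicate 2 (y, log axis) for genes with a call in both, with members coloured by class and all protein-coding genes in grey. Members with strong calls lie along the diagonal cloud, while those with weak calls cover a narrow range.

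Summits at the IDR members lay close to the gene start. The distance to the nearest TSS of the gene was at most 350 bp at 8 of 9, against 60.2% of the 661 genes with an IDR summit. The median distance was 220 bp over the 9, against 281 bp over those genes. A summit lay upstream of the TSS at 7 of 9, against 81.2%, and between protein-coding genes at 6 of 9, against 74.6%. All 6 elongation factors, including those without an IDR summit, had their highest summit within 350 bp of a TSS. Of the 27 initiation factors with a call 13 did (48.1%), against 46.9% of all genes with a call. Many weak calls at initiation factors lay inside genes, such as those at eif-2alpha and eif-6 in their own coding sequence.

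**Figure D4:**
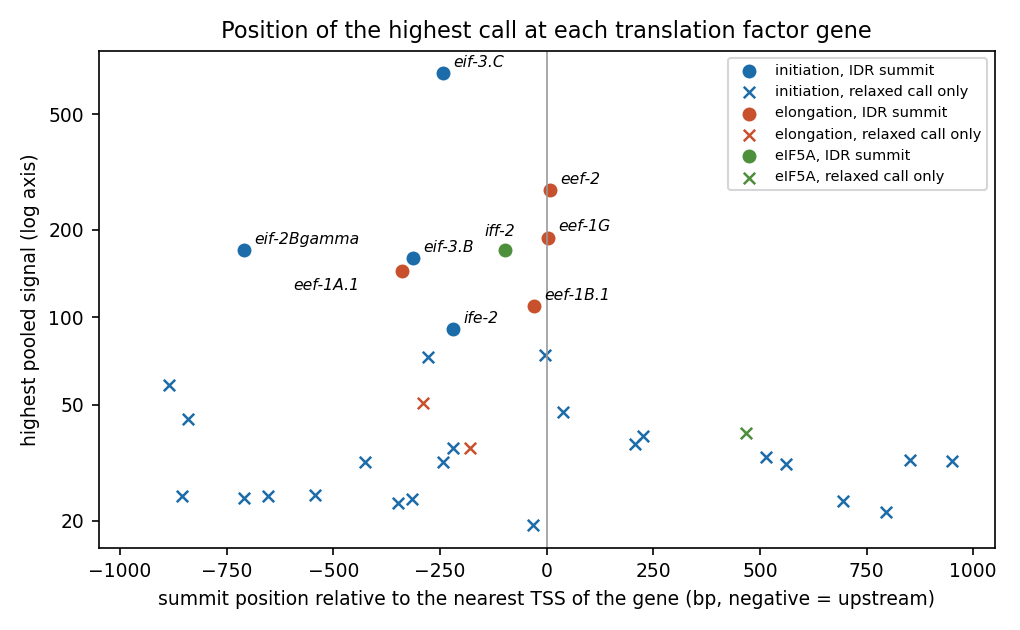
Position of the highest pooled summit relative to the nearest TSS of the gene (x, bp, negative values upstream) and its signal (y, log axis) for the 35 members with a call. Filled circles are IDR summits, all but eif-2Bgamma within 350 bp of the TSS, and crosses are weaker calls, which spread over the whole window.

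Several peaks at elongation factors stood in promoters shared with another gene. A TSS of a second protein-coding gene lay within 1000 bp of the summit at 5 of 9 IDR members, against 52.5% of genes with an IDR summit, so such sharing was near the background. All 4 elongation factors with an IDR summit had a divergent neighbour. For eef-1A.1 it was rfc-4, a subunit of the clamp loader of DNA replication, whose TSS at 201 bp was nearer to the summit than that of eef-1A.1 at 340 bp. The neighbours clsp-1 of eef-2, the worm Claspin gene, and ctf-4 of eef-1G, a replisome gene, lay at 273 and 184 bp. The neighbour of eef-1B.1 was the mitochondrial aconitase gene aco-2, at 302 bp. The peaks of eif-3.B, eif-3.C, eif-2Bgamma and ife-2 had no TSS of another protein-coding gene within 1000 bp. At 8 of the 9 the nearest TSS was the member's own, against 73.1%, with eef-1A.1 the exception. These data cannot tell which gene of a shared promoter a site belongs to.

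The next gene upstream was on the other strand at 21 of 39 members, against 45.4% of all genes, and at 5 of the 9 IDR members. A gene of the same strand ended within 500 bp upstream of 7 members, against 18.1% of all genes. Among these were 2 IDR members, eif-3.C behind sys-1 at 400 bp and eif-2Bgamma behind C15F1.5 at 251 bp.

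Small RNA genes lay beside the members' summits about as often as beside those of other genes. A tRNA, snoRNA or snRNA gene was within 200 bp of the highest summit at 1 of the 9 IDR members, eif-2Bgamma, against 15.7% of genes with an IDR summit. There the summit was 36 bp from sup-39 at II:6968394-6968558 and 172 bp from mir-1831, both annotated as snRNA genes on the minus strand. A piRNA gene, 21ur-14704 at II:6968318-6968338, lay 20 bp away and C15F1.14, annotated as ncRNA, 34 bp away. The sequence above holds bases of sup-39 and C15F1.14 at its start and the whole piRNA gene near its end, with no annotated RNA gene at the summit itself. Among all members with a pooled call this site was 1 of 35, against 2.74% of all genes with a call. No tRNA gene lay within 1000 bp of a TSS of any member.

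Other non-coding RNA genes covered 2 further summits. The eef-1A.1 summit fell inside cel-mir-5549, annotated as a miRNA gene at III:6971976-6972085 on the minus strand. The eef-1B.1 summit fell inside F54H12.9, an ncRNA gene at III:7973327-7973465 on the plus strand that spans the gene start. In all, 3 of 9 IDR members had a non-coding RNA gene within 200 bp of the summit, against 30.7% of genes with an IDR summit, a share near the background. Of the other members 1 did, eef-1A.2, 21 bp from the ncRNA gene R03G5.8, which made 4 of 35 with a call, against 9.39% of all genes with a call. Within 1000 bp of a TSS, tRNA, snoRNA or snRNA genes were found at 3 of 39 members, against 2.35% of all genes, a share above the background that rests on 3 genes. Besides eif-2Bgamma, these were the snoRNA genes F17C11.15 at eef-1G and F54C9.12 at iff-2, 725 and 192 bp from a TSS. Which of these genes the sites relate to was not tested.

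Of 6 short motifs searched, 4 were found at 1 or more members, and for the rarest ones no match is near what their share in all promoters gives. The tRNA promoter elements known as the B box and the A box were in 0 of 39 member promoters, taken from 250 bp upstream to 50 bp downstream of the outermost TSS, against 0.165% and 0.15% of all 19973. Within 50 bp of the highest summit they were likewise at 0 members, against 3.46% and 2.26% of the 839 nuclear IDR peaks. The TATA-like word TATAAA was in 17 member promoters, against 38% of all promoters. Near the summit it was present at 2 IDR members, eif-3.B and ife-2, as capitals show in the sequences above, against 6.67% of nuclear IDR peaks. It was also near the summits of the weaker members eif-2beta and eif-3.F. In promoters, CACGTG was at 0 members, against 5.83% of all promoters, GAGAGAG at 1, eif-2beta, against 6.79%, and CCGCCC at 1, eif-6, against 7.81%. The E-box word CACGTG was near no IDR member's summit, against 3.1% of nuclear IDR peaks, and near those of the weaker members eif-3.H and eif-4A3. The repeat GAGAGAG was near no IDR member's summit, against 9.77%. The GC-rich word CCGCCC was near no IDR member's summit, against 7.51%, and near those of eif-1.A and eif-6. Both strands were searched. GC content within 50 bp of the summit ran from 28.7% at eif-3.B to 59.4% at iff-2 with a median of 47.5% over the 9, against 48.5% over nuclear IDR peaks.

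Other genes of the translation machinery differed by group. The lists of these genes were fixed with earlier results of these data known, so their shares are descriptions and not evidence of enrichment. Of 9 genes for poly(A) and cap partners, helicases, termination and recycling, 3 had an IDR summit (33.3%), against 3.31% of all genes. They were drr-2, an eIF4H-like factor, with a pooled signal of 488.6, larp-1, an RNA-binding regulator, with 394, and ifet-1, the 4E-T homologue, with 330.2. The peak at ifet-1 was also that of rps-1. The poly(A)-binding protein genes had none, with signals of 67.2 at pab-2 and 27 at pab-1, and the release factor gene erfa-1 had no call.

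Of 10 genes that control translation through kinases and TOR, 1 had an IDR summit (10%), against 3.31% of all genes. It was the GTPase gene rheb-1, with a signal of 108. The eIF2 kinase pathway genes gcn-1 and gcn-2 followed with 65 and 63.3. The elongation factor kinase gene efk-1 had 38.3. Of 4 mitochondrial translation factor genes none had an IDR summit, against the same 3.31%, gfm-1 being highest with 84.2 and tufm-1 next with 27.4.

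The cytosolic ribosomal protein genes had an IDR summit at 23 of 81 (28.4%), against 3.31% of all genes. The median percentile was 74.6 for initiation and 98.2 for elongation factors, against 93.2 for the ribosomal protein genes. The highest were rpl-3 with 768.6 and rpl-20 with 686.9, near the value of eif-3.C. The others were rpl-7A, rpl-11.2, rpl-12, rpl-14, rpl-15, rpl-22, rpl-24.2, rpl-27, rpl-29, rpl-35, rpl-38, rps-0, rps-1, rps-6, rps-12, rps-15, rps-19, rps-20, rps-23, rps-26 and rps-29, with signals down to 94.1. Of 32 aminoacyl-tRNA synthetase genes 1 had an IDR summit (3.1%), a share near the 3.31% of all genes. It was ears-2 with 127, the next being fars-3 with 66.3, and the median percentile of the list was 68.7. No test of these lists against each other was made.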

How the data were processed

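Per the readme deposited with the lists, calling was done by the authors against a control alignment, once per replicate and once on pooled reads, and the IDR set was made from these 3 lists. The sources used here name no aligner, caller, control or IDR threshold. The deposited signal of each call is the authors' value on an unstated scale. Only ce11 lists were used, and all calls lay within the chromosome lengths of WBcel235. Replicates came from separate biological samples of 1 group, per the labels.

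Genes, TSSs of protein-coding transcripts and RNA genes came from Ensembl release 115. Sequence came from the RefSeq copy of WBcel235. Percentiles are mid-ranks over 19973 genes. Python 3.11.15, pandas 2.3.3, NumPy 2.4.6 and SciPy 1.17.1 were used, and the assignment of calls to genes was tested on simulated data. Members and gene lists were chosen with earlier results of these data known. The rule for named genes took all IDR members, others from the 90th percentile up, the 2 highest of each class, X-linked members, members without a call or with replicates 30 points apart, and the leading genes of the other lists. Other members are named to account for all 39. The genes efk-1, erfa-1, pab-1 and pab-2 were chosen after their values were seen, as were the roles given for shared-promoter neighbours.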

Additional observations from a re-analysis of the deposited data

How the results depend on the processing

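Across 10 alternative settings, 47 values stayed within the limits used and 9 moved. The limit was 1.5 times for counts. For median percentiles it was the standard deviation of the 2 replicates' medians, which is narrower than their difference. This was 4.255 points for all members, 5.302 for initiation and 0.2213 for elongation factors. Every count was among the 47, with 7 to 10 members bearing an IDR summit, against 1.85% to 4.89% of all genes. The limit for counts is wide. Members with a pooled call numbered 26 with a window of 500 bp, 29 with the nearest TSS only and 37 with 2000 bp, against 35 as reported. No share of all genes with a pooled call is given for these settings. With a window of 500 bp the median percentile was 68.16 for initiation and 98.69 for elongation factors, and with 2000 bp it was 97.43 for elongation factors. With the nearest TSS only it was 67.52 and 95.36, and without calls near tRNA, snoRNA or snRNA genes 98.5 for elongation factors. With 1 replicate left out it ran from 70.75 to 76.76 for all members, from 67.41 to 74.91 for initiation and from 97.83 to 98.14 for elongation factors. The causes were not tested. Each of these medians was lower for initiation than for elongation factors. The nearest-TSS rule removed eef-1A.1, the 500 bp window and the removal of small RNA sites removed eif-2Bgamma, the 431 highest IDR peaks removed eef-1B.1 and ife-2, and the 2000 bp window added eif-3.G. No paired analysis was possible because there is only 1 group. Depth is unknown, and a member without a call may lie below the limit of a list.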
